A study of Homo sapiens with 28 samples.

Results

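Untreated SHI1 cells were compared with untreated cells of 3 other acute myeloid leukaemia (AML) lines, MOLM13, THP1 and NOMO1, on gene expression arrays. The comparison used 8 of the 28 arrays of the study: 2 of SHI1 and 6 of the other lines, 2 for each, all from cells grown for 96 hours in 0.1% DMSO, the vehicle. From general knowledge of these lines, and not from the sample labels, SHI1 carries a KMT2A-AFDN fusion and the other 3 carry KMT2A-MLLT3. The arrays left out of the comparison were those of the same 4 lines after 96 hours with 1 µM GSK3484862, an inhibitor of the DNA methyltransferase DNMT1, and those of GDM1, SKM1 and SKNO1, 3 further AML lines, under both conditions. The duplicates were biological duplicates by the series design. SHI1 was the only line here with its fusion, so fusion and cell line cannot be told apart, and every p-value below concerns these lines and the spread between duplicates.

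In KMT2A-rearranged leukaemia the amino-terminal part of KMT2A, a chromatin regulator, is joined to a partner protein. Most partners belong to, or bind, the machinery that promotes transcript elongation and recruits the histone methyltransferase DOT1L, whereas AFDN is an adherens junction adaptor. The fusions are known for keeping HOXA genes and MEIS1 active, and lines of this class often resemble immature monocytes. Since whole cultures were measured, fewer cells of a type and less RNA per cell cannot be told apart.

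Values are log2 probe set signals as deposited, 1 probe set per gene, and a difference of 1 is 2-fold. The lowest value in the table was 2.13, a floor below which nothing is resolved, so a difference from a gene at the floor is a size on this scale only. Medians of the 8 arrays lay between 8.36 and 8.49, and duplicates correlated across probe sets at r = 0.998 in SHI1, 0.997 in MOLM13, 0.997 in THP1 and 0.995 in NOMO1. Of 10 monocytic leukaemia markers looked for, 8 were in the table. MPO (15.42 and 15.49 in SHI1, 6.84 to 13.73 in the lines) and CD14 (9.03 and 8.88 in SHI1, 2.13 to 7.78 in the lines) were apart and higher in SHI1. LYZ (12.23 and 12.02 in SHI1, 13.92 to 15.32 in the lines) and VCAN (3.04 in both SHI1 arrays, 6.86 to 11.95 in the lines) were apart and lower. Among the 4 others, FCN1 (11.06 and 10.81 in SHI1, 2.14 to 11.75 in the lines) and ITGAM (10.85 and 10.62 in SHI1, 5.38 to 13.50 in the lines) were called higher. MNDA (12.42 and 12.57 in SHI1, 11.43 to 14.25 in the lines) and CSF1R (5.60 and 6.06 in SHI1, 6.44 to 9.55 in the lines) were called lower. Here called is a limma adjusted p under 0.05 against the mean of the lines, and apart is a difference of at least 2-fold from each line in 1 direction, each at adjusted p under 0.05. Markers of other blood lineages were represented by 3 genes and markers of tissues other than blood by 3. CD79A (5.08 and 5.08 in SHI1, 3.86 to 5.08 in the lines) and ITGA2B (4.14 and 4.09 in SHI1, 3.70 to 4.08 in the lines) were low throughout. CD3D (6.15 and 6.40 in SHI1, 4.15 to 9.18 in the lines), KRT18 (8.31 and 8.52 in SHI1, 3.17 to 10.51 in the lines), COL1A1 (9.16 and 9.48 in SHI1, 9.11 to 9.65 in the lines) and KRT8 (5.17 and 5.19 in SHI1, 5.17 to 5.88 in the lines) lay within or next to the range of the lines.

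Of 11676 genes, 7642 (65.5%) differed between SHI1 and the mean of the 3 lines, 3976 (34.1%) higher and 3666 (31.4%) lower in SHI1 (limma, adjusted p under 0.05). With a difference of at least 2-fold, 2614 genes (22.4%) remained, 1193 (10.2%) higher and 1421 (12.2%) lower. The median difference over all genes was 0.01. A difference from a mean can come from 1 line, and 287 of the 1193 lay below at least 1 of the 3 lines, while 293 of the 1421 lay above at least 1. By the rule for genes apart, which requires a difference from each line, 391 genes (3.35%) were higher and 465 (3.98%) lower. SHI1 was not the line with the most genes apart. Applied to each other line against the remaining 3, the same rule gave 205 higher and 500 lower in MOLM13, 750 and 448 in THP1, and 647 and 297 in NOMO1.

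When the 4 lines themselves were taken as the units, 1 against 3, limma called 0 genes (0%), and 674 (5.77%) passed an unadjusted p under 0.05. Among the genes apart, 250 of the 391 higher and 302 of the 465 lower passed that unadjusted threshold. These genes were selected on the same arrays for lying beyond each line, which favours them in this fit, so their share is no independent support. The other 3 lines of the study give a further measure of how particular to SHI1 these levels were. Of the 391 higher genes, 138 were also at least 2-fold above the mean of each of GDM1, SKM1 and SKNO1, and of the 465 lower genes 132 were at least 2-fold below each. The same count over all genes was not made, so these counts describe only genes already selected as extreme in SHI1. By the median absolute difference over all genes, MOLM13 lay nearest to SHI1 at 0.43, SKM1 followed at 0.46 and NOMO1 at 0.49. SKNO1 was at 0.53, THP1 at 0.55 and GDM1 at 0.56.

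Among the 14 genes with the highest values over every line was LIN28B, an RNA-binding protein that blocks maturation of let-7 microRNAs. It measured 11.93 and 11.87 in SHI1, and had a lowest value of 2.13, a median of 2.13 and a highest of 2.21 in the 6 arrays of the lines. The difference was 9.75 ± 0.15 (SE; limma adjusted p = 1.77e-18). All 6 arrays of the lines were at or next to the floor. LIN28B was not particular to SHI1 in the study, as its mean was 11.08 in GDM1 and 11.48 in SKM1. SPARC, a secreted matrix protein, measured 13.66 and 13.59 in SHI1 against a range of 2.13 to 4.40 with a median of 2.42 in the lines. Its difference was 10.77 ± 0.20 (adjusted p = 3.27e-17). GDM1 and SKM1 again were close to SHI1, with means of 13.13 and 13.31.

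BHLHE41, a transcriptional repressor of the circadian clock, was at 11.14 and 11.20 in SHI1 and at 2.13 in all 6 arrays of the lines. Its difference was 9.04 ± 0.17 (adjusted p = 3.27e-17). The 3 further lines were also low, with the highest mean, 3.77, in SKNO1. SLC28A3, a transporter that imports nucleosides and nucleoside drugs, measured 9.61 and 9.54 in SHI1 and 2.13 in the lines. The highest mean of the 3 further lines was 3.58, in SKNO1. CTHRC1, a secreted protein with a collagen-like repeat, measured 8.62 and 8.51 in SHI1 and 2.13 to 2.18 in the lines. The long non-coding RNA LINC01097 measured 9.63 and 9.54 in SHI1 and 2.13 to 2.20 in the lines. CACNA2D1, a calcium channel subunit, differed by 8.87, WFDC1, a protein with a protease-inhibitor fold, by 8.27, and HOXB7 by 7.70. These 7 genes were the ones among the 14 that were at least 2-fold above the means of all 6 other lines.

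For the remaining genes of that set at least 1 further line was close to SHI1 or above it. MMRN1, an adhesive glycoprotein of platelets and endothelium, measured 10.84 and 10.74 in SHI1 and 2.13 in the lines, with a mean of 13.97 in GDM1. ZFPM2, a cofactor of GATA factors, measured 9.69 and 9.76 in SHI1 and 2.13 in the lines, with 11.49 in GDM1. ITGA9, an integrin subunit, differed by 9.04, SMIM24, a small membrane protein, by 9.24, and TMEM273, a transmembrane protein, by 6.82. GDM1 lay between 10.65 and 13.45 for these 3. Just inside the set was WFDC1, with a smallest difference from a single line of 6.39, and just outside it was HOXB6, with 6.37.

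**Figure D1:**
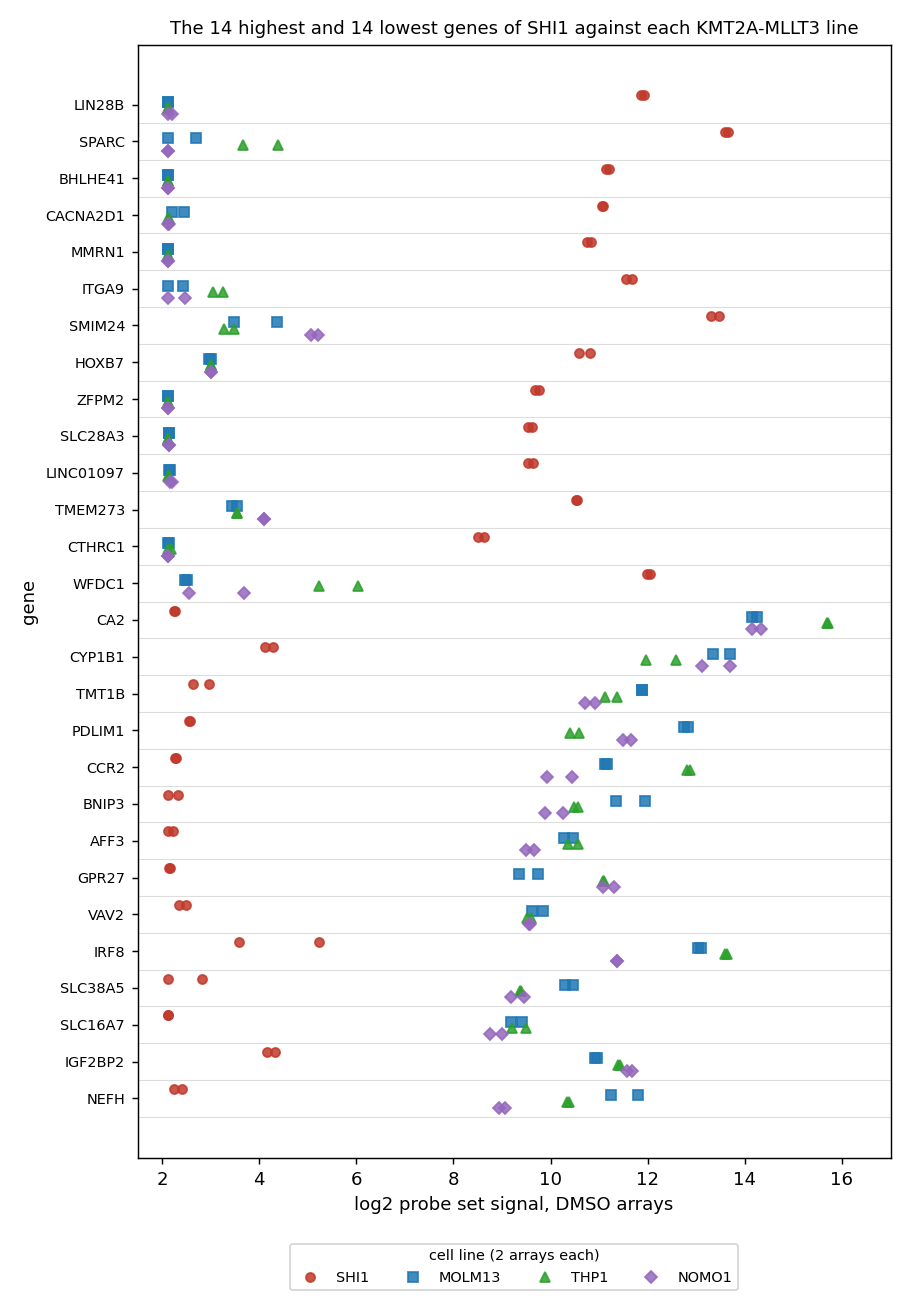
Log2 probe set signal (horizontal axis) of the 14 highest and 14 lowest genes of SHI1 against every line, with 1 point per DMSO array and 2 arrays per line. SHI1 points lie between 8.51 and 13.66 for the upper genes and between 2.13 and 5.23 for the lower genes. In each they lie on the far side of all 6 arrays of MOLM13, THP1 and NOMO1, which the selection of these genes required.

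The largest difference in the other direction was in CA2, a carbonic anhydrase. It measured 2.25 and 2.26 in SHI1, against a lowest value of 14.15, a median of 14.29 and a highest of 15.71 in the lines. The difference was -12.46 ± 0.10 (SE; limma adjusted p = 3.66e-22). SKNO1 had the same low level, 2.25, while SKM1 was at 13.93 and GDM1 at 9.28. CCR2, the receptor that draws monocytes towards CCL2, measured 2.29 and 2.27 in SHI1 against 9.92 to 12.87 in the lines. CYP1B1, a cytochrome P450 enzyme, measured 4.29 and 4.12 in SHI1 against 11.97 to 13.70. NEFH, a neurofilament subunit, measured 2.26 and 2.42 in SHI1 against 8.94 to 11.80, and was between 2.26 and 2.38 in all 3 further lines. For these genes low values were thus shared with at least 1 other line outside the comparison.

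In this set, 4 of the 14 genes were at least 2-fold below the means of all 6 other lines. IGF2BP2, an RNA-binding protein that stabilises messenger RNAs, measured 4.33 and 4.15 in SHI1 against 10.91 to 11.68 in the lines, with a difference of -7.08 ± 0.07 (adjusted p = 3.1e-21). Its means in the further lines were 11.21 to 11.38, so SHI1 was the low line among all 7. BNIP3, a mitochondrial protein induced in hypoxia that promotes mitophagy, measured 2.13 and 2.32 in SHI1 against 9.88 to 11.94. PDLIM1, a cytoskeletal adaptor, measured 2.57 and 2.56 in SHI1 against 10.40 to 12.84. SLC38A5, an amino acid transporter, measured 2.83 and 2.13 in SHI1 against 9.18 to 10.46.

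The other genes of this set were IRF8, AFF3, GPR27, VAV2, SLC16A7 and TMT1B. AFF3, a transcription elongation protein of the AFF family, differed by -7.96 on its main probe set and by -1.33 to -0.31 on its others. VAV2 differed by -7.19, and SLC16A7, a monocarboxylate transporter, by -7.04. TMT1B, a thiol methyltransferase, differed by -8.51. GPR27, an orphan receptor, differed by -8.45 on its main probe set and by -1.22 on its other one. All probe sets of all 135 genes named by the rule shared the sign of the main one, so for AFF3 and GPR27 the size of the difference, and not its sign, depended on the probe set.

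Of 13 genes that take part in KMT2A fusions or their complexes, all were measured, 9 were higher and 3 lower in SHI1 (34.1% and 31.4% of all genes), and 0 were apart from every line (7.33% of all genes). AFDN measured 9.18 and 9.14 in SHI1, against line means of 3.49 in MOLM13, 4.06 in THP1 and 8.79 in NOMO1. The difference from their mean was 3.71 ± 0.16 (adjusted p = 2.67e-12). The level in NOMO1 was near that in SHI1, and SKM1 reached 9.38. Whether the AFDN and MLLT3 probe sets read fusion transcripts was not tested. KMT2A itself measured 9.40 and 9.19 in SHI1 and 7.08 to 8.80 in the lines, a difference of 1.44 ± 0.10 (adjusted p = 9.46e-10). SHI1 was above all 6 arrays, as in 18.9% of all genes. It was not above the further lines, where KMT2A means were 10.40 in GDM1, 9.35 in SKM1 and 10.89 in SKNO1. MLLT3 measured 6.40 and 6.03 in SHI1 and 6.58 to 7.34 in the lines, a difference of -0.85 ± 0.23 (adjusted p = 0.00317). It was lower than in all 6 arrays, but its call was lost without the second SHI1 array (-0.67, adjusted p = 0.0702). The further lines had higher MLLT3 means, 9.57 in GDM1, 9.12 in SKM1 and 8.92 in SKNO1. DOT1L measured 9.42 and 9.28 in SHI1 and 8.05 to 8.91 in the lines.

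Of 39 HOX genes and known fusion targets, 23 were measured, and 8 were higher and 9 lower, the higher share being near the 34.1% of all genes (31.4% lower). Their median difference was 0.02 beside 0.01 over all genes. HOXA9, HOXA10 and MECOM were not analysed here. MEIS1, the HOX cofactor, measured 10.81 and 10.87 in SHI1, and 10.55 in MOLM13, 10.29 in NOMO1 and 2.13 in THP1 as line means. Its difference of 3.18 from their mean came mainly from 1 line, THP1. PBX3, a further HOX cofactor, measured 11.60 and 11.54 in SHI1 and 10.82 to 12.33 in the lines, with a difference of 0.05 that did not pass the test (adjusted p = 0.542).

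The HOX genes measured here belonged to the B and C clusters, 9 transcripts in all, and 7 of them were apart and higher in SHI1, beside 3.35% of all genes. The B cluster, which encodes transcription factors of haematopoietic stem cells and early progenitors, gave 6 of these 7, one being the antisense transcript HOXB-AS1, which measured only 3.70 and 3.20 in SHI1 against 2.13 to 2.18 in the lines. HOXB7 measured 10.81 and 10.59 in SHI1 and 2.98 to 3.02 in the lines. HOXB6 measured 8.81 and 8.32 in SHI1 and 2.20 in the lines. HOXB2 measured 7.73 and 7.99 in SHI1 and 3.08 to 3.12 in the lines. For these 3 genes the 6 arrays of the lines lay within a narrow low range. HOXB3 and HOXB4 were less far apart, at 3.95 and 2.12. HOXB4 measured 9.31 and 9.33 in SHI1 against 6.93 to 7.78. HOXB5 measured 4.33 and 4.20 in SHI1 against 3.64 to 4.50 and did not pass the test (difference 0.08, adjusted p = 0.766). HOXC6 measured 9.72 and 9.77 in SHI1, against 8.32 in NOMO1 and 2.43 to 2.45 in the other lines. Outside the comparison, HOXB3 (7.18 and 7.17 in SHI1) had means of 7.66 in GDM1 and 7.55 in SKM1, and HOXB4 had 9.46 in GDM1. HOXB7 had a mean of 6.66 in SKM1, above the lines but well below SHI1.

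Among the fusion targets lower in SHI1, LAMP5, a lysosomal membrane protein family member, was at 2.13 in both SHI1 arrays. In the lines its mean was 13.95 in MOLM13, 11.75 in THP1 and 4.61 in NOMO1. The difference was -7.97 ± 0.25 (adjusted p = 3.25e-14), and GDM1, SKM1 and SKNO1 were at 2.13 too. SKIDA1 measured 7.36 and 7.28 in SHI1 and 9.92 to 10.88 in the lines. ZNF521, a zinc finger protein of early progenitors, measured 11.02 and 10.92 in SHI1 and 12.21 to 12.56 in the lines. These 3 were the members of the list that were apart and lower.

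The type I interferon response formed the group with the largest share of genes apart among the lists examined, 19 of 47 (40.4%) beside 7.33% of all genes. Interferon signalling drives the factor complex ISGF3, whose binding element, with a core of GAAA, any 2 bases and GAAA again, lies in the promoters of many antiviral genes. Of 47 measured genes, 29 were higher, 8 lower and 10 not called (34.1% and 31.4% of all genes were higher and lower), and 18 were apart and higher against 1 apart and lower. Their median difference was 1.01, and by line it was 1.86 over MOLM13, 1.16 over THP1 and 0.78 over NOMO1. These genes were chosen with earlier results of these data known.

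Promoter sequences of 5 of the leading genes are shown because each holds the element before its start. They are 60 bases that hold the match nearest the start, from RefSeq on GRCh38.p14, plus strand, with each full match to that core on either strand in capitals (the reverse complement reads TTTC, any 2 bases and TTTC).
IFIT1, chr10:89392495-89392554: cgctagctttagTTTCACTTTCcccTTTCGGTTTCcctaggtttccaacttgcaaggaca
IFITM1, chr11:313975-314034: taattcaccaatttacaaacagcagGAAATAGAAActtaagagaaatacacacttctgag
IFIT3, chr10:89327850-89327909: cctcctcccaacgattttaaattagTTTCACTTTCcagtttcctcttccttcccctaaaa
IFI44, chr1:78649729-78649788: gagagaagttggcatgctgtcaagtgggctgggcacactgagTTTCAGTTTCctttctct
OAS3, chr12:112938414-112938473: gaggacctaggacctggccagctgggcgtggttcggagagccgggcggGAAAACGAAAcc
Within 250 bases before and 50 after the start, the element occurred in 996 of 27305 RefSeq promoters (3.65%) and in 279 of 9563 promoters of genes measured here (2.92%). It occurred in 11 of 14 matched interferon genes that were apart and higher, and in 11 of 21 matched interferon genes that were not apart. A match describes the letters in this window and shows no binding.

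IFIT1, which binds viral RNA that lacks a host cap, measured 10.20 and 10.36 in SHI1 against a lowest value of 2.14, a median of 3.41 and a highest of 5.26 in the lines. The difference was 6.78 ± 0.43 (SE; limma adjusted p = 4.14e-10). IFIT3, its partner, measured 10.87 and 10.73 in SHI1 against 2.52 to 8.20 in the lines. IFITM1, a membrane protein that restricts virus entry, measured 12.02 and 12.12 in SHI1 against 3.40 to 8.88. HERC5, the ligase that attaches ISG15 to proteins, measured 9.40 and 9.43 in SHI1, against 8.17 in THP1, 3.03 in MOLM13 and 2.96 in NOMO1. For all 4, both SHI1 arrays were above the 6 arrays of the lines. That held for every gene apart and higher, and for 18.9% of all genes. Further list members, chosen after their values were seen, were apart too. IFI44 differed by 4.26, IFI6 by 3.87, and OAS3, a sensor of double-stranded RNA, by 3.72. ISG15, a ubiquitin-like modifier, measured 12.13 and 12.17 in SHI1 and 10.07 to 10.69 in the lines.

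Not every interferon gene was higher in SHI1. LY6E, a surface protein, was apart and lower, with 6.66 and 6.47 in SHI1 against 7.62 to 10.52 in the lines. MX1 and MX2, GTPases that block viruses, had differences of -1.06 and -2.69, and TRIM22 one of -1.55. IRF7, the interferon regulatory factor that amplifies the response, measured 8.40 and 8.11 in SHI1 and 7.54 to 8.24 in the lines and did not pass the test (adjusted p = 0.247). Outside the comparison, GDM1 had IFIT3 at 10.32, IFI44 at 10.10 and IFI6 at 11.29, near or above SHI1. As means, HERC5 was above SHI1 in SKM1 (11.25) and SKNO1 (9.89) and below it in GDM1 (2.86). IFITM1 was above SHI1 in SKNO1 (12.96) and below it in GDM1 (11.62) and SKM1 (10.42). IFIT1 was below SHI1 in each further line, with its highest mean, 8.70, in GDM1.

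**Figure D2:**
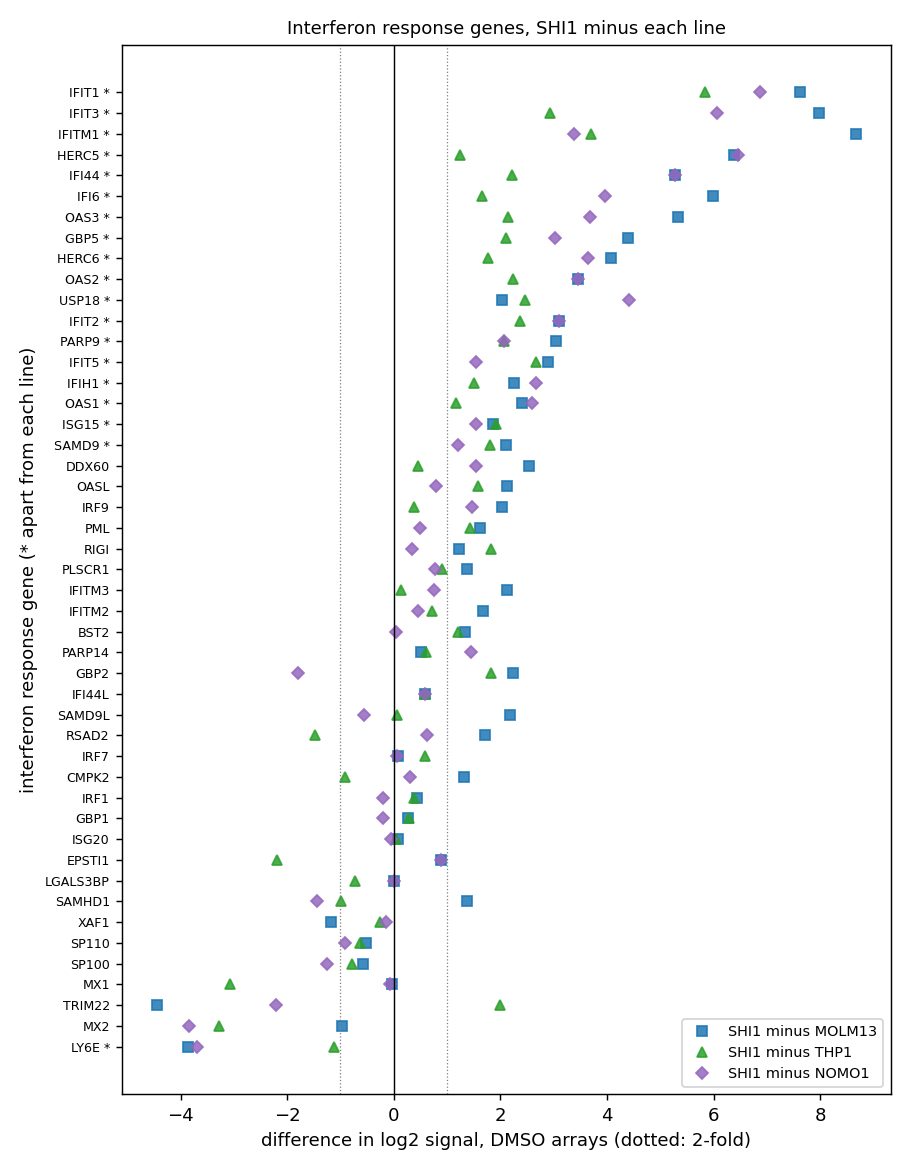
Difference in log2 signal (horizontal axis) between SHI1 and each line under DMSO for the 47 measured interferon response genes, 1 marker per line, sorted by the difference from the mean of the lines. The 18 starred genes that were apart and higher lie right of the dotted 2-fold line against MOLM13, THP1 and NOMO1. LY6E, the starred gene that was apart and lower, is at the bottom.

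Of 23 neutrophil and granule genes, 11 were higher and 5 lower (34.1% and 31.4% of all genes), with a median difference of 0.69. Of them, 6 were apart and higher and 1 apart and lower (3.35% and 3.98% of all genes). MPO, the azurophil granule peroxidase, measured 15.42 and 15.49 in SHI1 against a lowest value of 6.84, a median of 11.73 and a highest of 13.73 in the lines, a difference of 4.70 ± 0.22 (adjusted p = 5.18e-12). S100P, a calcium-binding protein, measured 14.12 and 14.14 in SHI1 against 2.88 to 11.48. ANXA3, an annexin of neutrophil granules, measured 10.95 and 10.68 in SHI1 against 2.13 to 8.64. ARG1, arginase of granulocytes, measured 8.15 and 7.65 in SHI1 against 2.16 to 2.27. In each of these genes the groups did not overlap, as in the 2206 genes (18.9%) where SHI1 lay above all 6 other arrays. It held for all 391 genes apart and higher, which include these. SKM1 had similar or higher means for MPO (15.48), ANXA3 (12.06) and ARG1 (7.66). CEBPE, a transcription factor of late granulocyte development, measured 11.80 and 11.67 in SHI1 against 5.73 to 10.93, but was within 2-fold of NOMO1.

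Of 31 monocyte and macrophage markers, 11 were higher, a share near the 34.1% of all genes, and 16 were lower (31.4% of all genes), with a median difference of -0.67. Of them, 3 were apart and higher and 8 apart and lower (3.35% and 3.98% of all genes). Against single lines the median was 0.14 for MOLM13, -0.08 for THP1 and -1.91 for NOMO1, the last being the only one beyond -0.67. IRF8, the factor that directs progenitors to the monocyte and dendritic lineages, measured 5.23 and 3.58 in SHI1 against 11.37 to 13.63 in the lines. The difference was -8.28 ± 0.28 (adjusted p = 9.55e-14), though the SHI1 arrays differed from each other by more than 2-fold. KLF4, a further monocyte factor, measured 2.72 and 2.64 in SHI1 against 7.62 to 10.26. VCAN, a matrix proteoglycan of monocytes, measured 3.04 and 3.04 in SHI1 against 6.86 to 11.95. Other monocyte markers were higher. CD14, the lipopolysaccharide co-receptor, measured 9.03 and 8.88 in SHI1 against 2.13 to 7.78. CD36, a scavenger receptor, measured 13.12 and 13.17 in SHI1 against 8.48 to 10.29. CD14 and CD36 were picked after their values were seen.

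**Figure D3:**
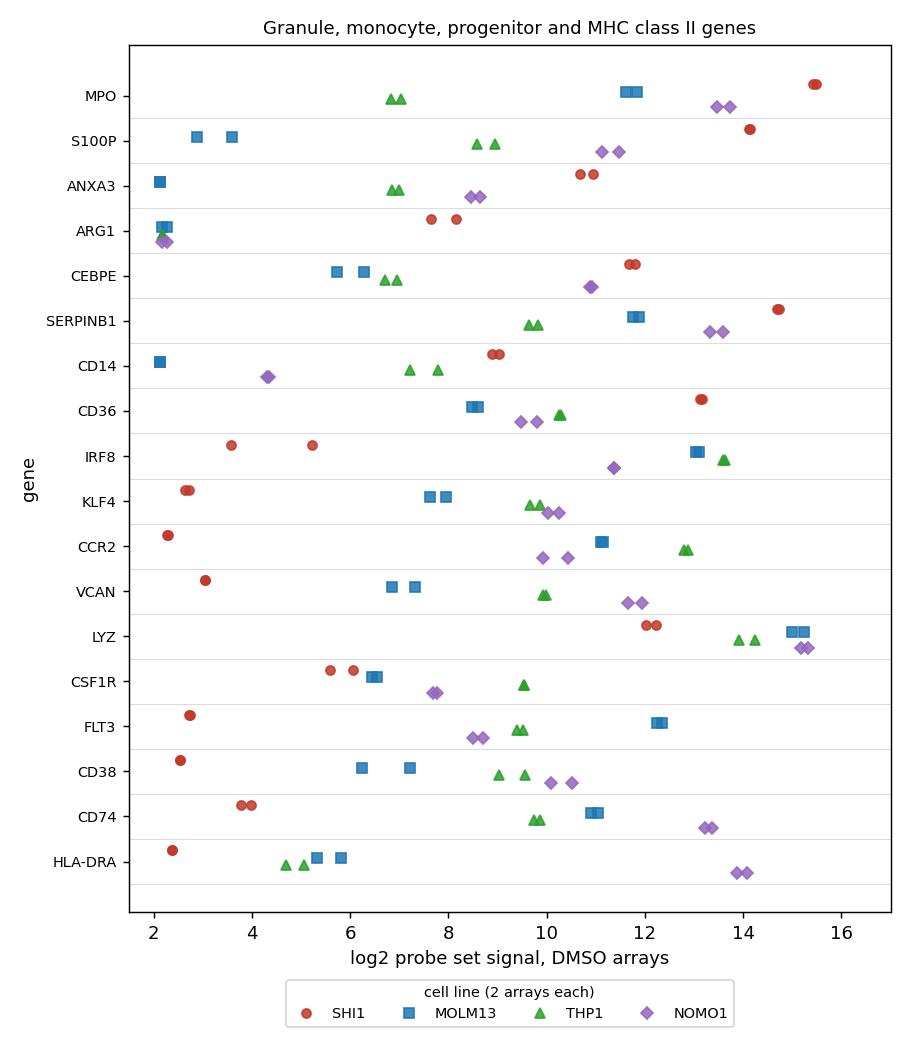
Log2 probe set signal (horizontal axis) of 18 granule, monocyte, progenitor and MHC class II genes in the 8 DMSO arrays, 1 point per array. The 18 genes are a selection in which SHI1 did not overlap the other arrays. Genes that did overlap, such as FCN1, ITGAM, MNDA, KIT and HLA-DPA1, are not shown. SHI1 lies right of all other arrays for MPO to CD36 and left of all other arrays for IRF8 to HLA-DRA. CSF1R is the nearest of the lower genes (5.60 and 6.06 in SHI1, lowest other array 6.44).

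Of 16 MHC class II genes, which present antigen to CD4+ T cells, 2 were higher and 13 lower (34.1% and 31.4% of all genes), with a median difference of -2.28. The median was -0.24 against MOLM13, -0.68 against THP1 and -4.52 against NOMO1, so the size of the list difference came mainly from NOMO1. CD74, the invariant chain, measured 3.98 and 3.79 in SHI1 against 9.74 to 13.36 in the lines, and had means of 11.54 to 13.07 in the 3 further lines. HLA-DRA measured 2.38 and 2.38 in SHI1, against 13.97 in NOMO1, 5.58 in MOLM13 and 4.88 in THP1. HLA-DPA1 was as low in MOLM13 (2.49) as in SHI1 (2.49 and 2.49), and without NOMO1 its difference no longer passed the test (-0.41, adjusted p = 0.372). HLA-DRB1 has near-identical copies, so its value of 5.86 in both SHI1 arrays is uncertain as to gene. Of 19 MHC class I genes, 2 were higher and 10 lower, beside the same 34.1% and 31.4% of all genes. Only with both directions pooled were the shares called (63.2%) and apart (5.26%, TAPBP at -1.29) near those of all genes (65.5% and 7.33%).

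Of 20 stem and progenitor genes, 3 were higher and 9 lower (34.1% and 31.4% of all genes). Their median difference was 0.00 against MOLM13, 0.05 against THP1 and -0.23 against NOMO1. LYL1, a transcription factor of stem cells, was apart and higher, with 13.27 and 13.32 in SHI1 against 11.09 to 11.83 in the lines. CD109, CD38 and FLT3 were apart and lower. FLT3, the cytokine receptor that MOLM13 is known to carry in an activated form, measured 2.74 and 2.73 in SHI1 against a lowest value of 8.49, a median of 9.46 and a highest of 12.35 in the lines. The difference was -7.39 ± 0.20 (adjusted p = 4.74e-15). CD38, an ectoenzyme, measured 2.53 in both SHI1 arrays against 6.24 to 10.51. KIT, the stem cell factor receptor, measured 3.19 in both SHI1 arrays, against 3.14 in MOLM13, 9.43 in THP1 and 10.19 in NOMO1. SHI1 and MOLM13 were thus both low in KIT, and FLT3 and CD38 were low in SHI1 only among these 4 lines. Of 34 growth factor receptors, 6 were higher and 15 lower (34.1% and 31.4% of all genes). With both directions pooled, 61.8% were called, beside 65.5% of all genes. Of these receptors, 2 were apart and higher and 5 apart and lower (20.6% beside 7.33%). TNFRSF1B, a receptor of tumour necrosis factor, measured 2.91 and 3.13 in SHI1 against 7.97 to 10.12. IL2RG, the common cytokine receptor chain, measured 11.89 and 11.75 in SHI1 against 3.88 to 10.95.

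Of 40 adhesion and motility genes, 15 were higher and 20 lower (34.1% and 31.4% of all genes), with 2 and 6 apart (3.35% and 3.98% of all genes). ICAM2, an integrin ligand, measured 3.99 and 4.57 in SHI1 against 7.56 to 11.25. CADM1, a cell adhesion molecule, measured 5.16 and 3.73 in SHI1 against 7.21 to 11.57. CD9, a tetraspanin, measured 12.24 and 12.12 in SHI1 against 3.40 to 11.02. Of 21 NADPH oxidase and phagocyte genes, 12 were higher and 7 lower, beside the same 34.1% and 31.4% of all genes. CR1, complement receptor 1, measured 10.36 and 10.68 in SHI1, against 9.32 in NOMO1 and 2.39 or less in MOLM13 and THP1. SIGLEC5, an inhibitory lectin, measured 11.83 and 11.87 in SHI1 against 5.22 to 8.79 in the lines. C3AR1, a complement receptor, measured 11.47 and 11.25 in SHI1 against 5.91 to 9.13 in the lines.

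Of 35 cytokines and chemokines, 11 were higher and 17 lower (34.1% and 31.4% of all genes), and 1 was apart, CXCL10, a share of 2.86% beside 7.33% of all genes. This interferon-induced chemokine measured 10.61 and 10.74 in SHI1, against 9.10 in NOMO1 and 2.13 in MOLM13 and THP1. CCL2, the ligand of CCR2, measured 10.30 and 9.74 in SHI1, against 11.29 in NOMO1 and 3.51 or less in the other lines. For both genes NOMO1 was the line nearest to SHI1.

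Of 38 RAS and MAPK feedback genes, 13 were higher and 12 lower, shares near the 34.1% and 31.4% of all genes. The 4 apart (10.5% beside 7.33% of all genes) were EGR1, FOS, FOSL2 and RASGRP2, each lower, the first 3 being immediate early genes. FOS measured 6.02 and 4.94 in SHI1 against 8.23 to 10.00 in the lines. FOSL2 measured 7.35 and 7.15 in SHI1 against 9.74 to 10.39 in the lines. In the further lines FOS was below SHI1, with means of 2.46 in GDM1, 3.48 in SKM1 and 2.54 in SKNO1. FOSL2 was above SHI1 there, with means of 11.96 in GDM1, 9.29 in SKM1 and 7.55 in SKNO1. RRAS2 was at 2.13 in SHI1 and in MOLM13 alike, and at 9.32 in THP1 and 9.16 in NOMO1.

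Of 42 G2 and mitosis genes, 26 were higher and 7 lower (34.1% and 31.4% of all genes), with a median difference of 0.26. Of 46 S-phase genes 12 were higher and 17 lower, with a median of -0.04 and 0 apart (7.33% of all genes). MKI67, the proliferation antigen, measured 12.76 and 12.46 in SHI1 against 10.57 to 11.38. UBE2C, a ubiquitin-conjugating enzyme of mitosis, measured 10.70 and 10.42 in SHI1 against 12.59 to 13.15. Of 31 MYC and ribosome biogenesis genes, 19 were higher and 3 lower (34.1% and 31.4% of all genes), with a median of 0.24 and 0 apart. MYC measured 13.78 and 13.77 in SHI1, against 13.81 in MOLM13, 12.89 in THP1 and 12.25 in NOMO1.

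Of 29 p53 and cell cycle inhibitor genes, 6 were higher and 15 lower (34.1% and 31.4% of all genes), with a median difference of -0.44. By line this was -0.88 against MOLM13, -0.05 against THP1 and -0.03 against NOMO1. MTAP, an enzyme of methionine salvage whose gene neighbours CDKN2A, measured 10.55 and 10.65 in SHI1, against 9.53 in MOLM13 and 2.91 in both THP1 and NOMO1. CDKN2A, a list member chosen after its value was seen, measured 5.15 and 5.82 in SHI1 and 5.10 to 5.54 in the lines, and did not pass the test (adjusted p = 0.629). Its means in GDM1, SKM1 and SKNO1 were 9.37, 12.28 and 10.48. Gene copies were not measured.

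Of 21 genes of the DNA methylation machinery, 9 were higher and 8 lower (34.1% and 31.4% of all genes), and 1 was apart (4.76% beside 7.33%). That gene, DNMT3A, a de novo methyltransferase, measured 7.50 and 7.55 in SHI1 against 9.03 to 9.63 in the lines, a difference of -1.84 ± 0.09 (adjusted p = 1.41e-11). DNMT1, the maintenance methyltransferase that GSK3484862 inhibits, measured 13.81 and 13.84 in SHI1 against 13.01 to 13.47, a difference of 0.59 ± 0.06 (adjusted p = 8.17e-08). ZBTB38, which binds methylated DNA, had a difference of 2.23 that came from MOLM13, at 2.60, while SHI1 (9.45 and 9.39) lay between THP1 (9.97) and NOMO1 (9.02).

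By position, the genes of 3 autosomes had lower medians against every line. For 430 genes of chromosome 8 the median difference was -0.71, with -1.01 against MOLM13, -0.49 against THP1 and -0.44 against NOMO1. Of these genes, 33 were higher and 328 lower, beside 34.1% and 31.4% of all genes. For 165 genes of chromosome 18 the median was -0.64, with -0.52 against MOLM13, -0.63 against THP1 and -0.65 against NOMO1. There 17 genes were higher and 118 lower, beside the same shares of all genes. Chromosome 7 was closer to 0, with -0.12 over 545 genes and -0.04 against MOLM13, -0.25 against THP1 and -0.04 against NOMO1. Chromosome 10 had a median of 0.47 over 455 genes, and this came mainly from THP1 (1.14), as the medians were 0.14 against MOLM13 and 0.06 against NOMO1. All other autosomes had medians between -0.13 and 0.19. DNA copy number was not measured, and its part in these medians was not tested.

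**Figure D4:**
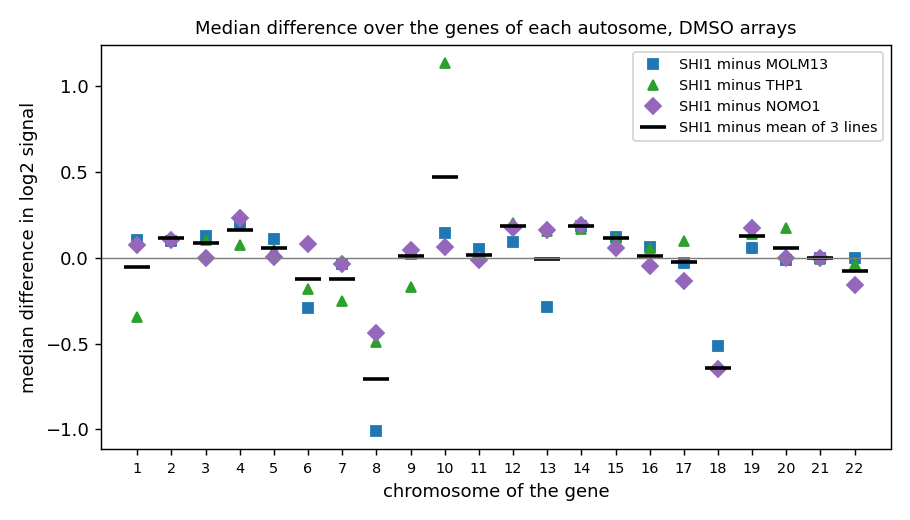
Median difference in log2 signal (vertical axis) over the measured genes of each autosome (horizontal axis), for SHI1 minus each line and minus their mean, DMSO arrays. Chromosomes 8 and 18 lie at -0.44 or lower against MOLM13, THP1 and NOMO1 each, and chromosome 10 is high against THP1 (1.14).

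Arrays of the same lines treated with 1 µM GSK3484862 came from other cultures and measured the differences again, within the same fit. In these arrays 1270 genes (10.9%) were at least 2-fold higher and 1450 (12.4%) lower in SHI1, and 390 (3.34%) and 495 (4.24%) were apart. Of the 391 genes higher and apart under DMSO, 390 had the same sign in treated arrays and 295 were apart again. Of the 465 lower genes, 465 had the same sign and 374 were apart again. A gene at least 2-fold from every line changes sign only if treatment shifts its difference by more than 2-fold. The share of all genes that kept their sign was not counted. BHLHE41 differed by 9.35 in treated arrays and by 9.04 under DMSO, and CA2 differed by -12.59 in treated arrays and by -12.46 under DMSO. The interferon list had a median of 0.85 in treated arrays and 1.01 under DMSO.

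The difference itself changed with treatment in 626 genes (5.36%; limma adjusted p under 0.05), 127 of them among the 856 genes apart under DMSO. This count depended on the treated SHI1 arrays, and was 293 without the first and 331 without the second. IRF8 differed by -5.85 in treated arrays and by -8.28 under DMSO. S100P differed by 3.13 in treated arrays and by 6.36 under DMSO. OAS1, chosen after its values were seen, was the apart gene whose sign changed, with -0.89 in treated arrays and 2.05 under DMSO.

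**Figure D5:**
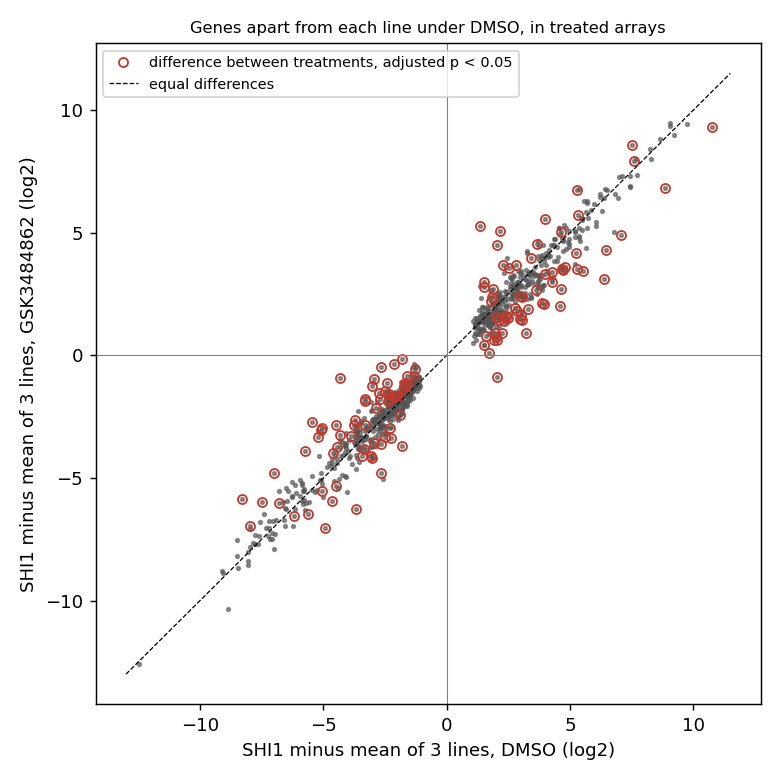
Difference in log2 signal between SHI1 and the mean of the 3 lines in GSK3484862 arrays (vertical axis) against the same difference in DMSO arrays (horizontal axis), for the 856 genes apart under DMSO. Points follow the dashed line of equal differences, open circles mark the 127 genes whose difference changed with treatment, and 1 gene lies on the other side of 0.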

How the data were processed

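The authors deposited 1 table of log2 signals from Affymetrix Human Genome U133 Plus 2.0 arrays, with 27306 probe sets and 28 columns. No source used here gives the background correction, summarisation or normalization, and limma, per the submitters' processing notes, is named with no version. Array medians and a shared floor of 2.13 show values already scaled, so they were used as deposited. Gene symbols came from the platform annotation: 22580 probe sets had 1 symbol, 1098 several and 3628 none. The probe set with the greatest average signal across all 28 arrays stood for its gene, giving 11676 genes.

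limma 3.58.1 in R 4.3.3 fitted 14 groups (line by treatment) on all arrays, with 14 residual degrees of freedom. Contrasts were SHI1 minus the mean of MOLM13, THP1 and NOMO1, SHI1 minus each, the same in treated arrays, and the difference of both. P-values were two-sided with Benjamini-Hochberg adjustment over all genes, and calls used 0.05. The fit was tested on simulated data. Each group had 2 arrays, and what limits precision was not tested.

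The named genes were the 14 highest and 14 lowest by smallest difference from a single line, up to 4 called genes per list of 30 lists, and the fusion genes, HOXA9, HOXA10, MEIS1, PBX3, MECOM, BHLHE41 and DNMT1 where measured. Other genes named were singled out after their values were seen. The comparison, members and lists were chosen with earlier results of these data known. Genes on the Y chromosome are not reported. Replicate numbers did not pair the samples: deviations of same-numbered arrays correlated at -0.05 to 0.09 between lines. Alternatives covered normalization, filters, probe sets, arrays, lines as units and replicates left out.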

Additional observations from a re-analysis of the deposited data

Results flagged for a closer look

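For 28 named genes the difference between SHI1 and the 3 lines in GSK3484862 arrays departed from that in DMSO arrays, by limma's test of the difference between both (adjusted p under 0.05). The values that follow are treated difference minus DMSO difference on the log2 scale. Genes higher in SHI1 under DMSO whose difference was smaller in treated arrays were S100P (-3.23), ALOX5 (-2.88), GTSF1 (-2.62), FGR (-2.13), CACNA2D1 (-2.04), SERPINA1 (-1.76), SPARC (-1.44), MPO (-1.23), HERC5 (-1.17), CEBPE (-1.14), IFITM1 (-1.07), NFE2 (-0.81) and PRAME (-0.71). Genes higher in SHI1 under DMSO, or not called there in the case of PBX3, whose difference was larger in treated arrays were IKZF2 (1.58), PRF1 (1.45), PBX3 (0.35), ZFPM2 (0.33) and NOLC1 (0.26). Genes lower in SHI1 under DMSO whose difference was nearer to 0 in treated arrays were SPINT2 (2.73), IRF8 (2.42), ICAM2 (1.83), ELOVL6 (1.49), CD74 (1.48), PPBP (1.25), NEFH (1.01), PTGER2 (0.90), RRAS2 (0.74) and LSS (0.73). ALOX5, the leukotriene-forming lipoxygenase, differed by -0.70 in treated arrays and by 2.19 under DMSO, the change of sign among these genes. The DMSO difference came from MOLM13, being 6.55 against MOLM13, 0.33 against THP1 and -0.32 against NOMO1, and without MOLM13 it was 0.0078 and did not pass the test (limma adjusted p = 0.969). GTSF1, a germ-cell gene, differed by 0.63 in treated arrays and by 3.26 under DMSO, where MOLM13 alone was low. No group had 4 or more arrays, so single arrays were not examined for outliers.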

How the results depend on the processing

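The counts of genes depended most on the unit of replication and on which lines were compared. With the 4 lines as units, limma called 0 genes higher and 0 lower, also at 2-fold, where 674 passed an unadjusted p under 0.05, and 134 of 134 called named genes lost their call; that fit has only 2 residual degrees of freedom by construction. Leaving out a line removes 1 condition from the rule for genes apart, and gave 823 lower without MOLM13, 637 higher without THP1, and 760 higher and 701 lower without NOMO1. Named genes whose difference changed sign were ZBTB38 (-0.0716), GTSF1 (-0.34) and IGLL1 (0.0729) without MOLM13, and PPBP (0.0635), RAB27B (0.80) and PBX3 (-0.29) without NOMO1. Leaving out 1 DMSO array at a time gave 378 to 412 genes apart higher, 454 to 468 apart lower, 1139 to 1223 and 1394 to 1434 at least 2-fold higher and lower, and 3240 to 3943 and 3079 to 3661 called. Leaving out 1 treated array, an alternative added after the data were seen, gave 1235 to 1308 and 1411 to 1458 genes at least 2-fold higher and lower in treated arrays and 293 to 578 genes whose difference changed with treatment. It was 293 without treated SHI1 replicate 1 and 331 without replicate 2, and the cause was not tested. FADS2 lost its call in the fit of 8 arrays (adjusted p = 0.115), without _x_at and _s_at probe sets (0.207), without MOLM13 (0.185) and without either SHI1 array (0.0513 and 0.0512). With the replicate number as a block 391 genes were apart higher and 465 lower, and no named call changed. Quantile normalization gave 401 and 448, and a filter on low values 277 and 402. Neither changed the call of a named gene, though the filter kept only 131 of the 135. With 2 arrays a line, and with values at the floor, small differences of weakly expressed genes could not be resolved.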

Other observations

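Genes of the LIN28B and let-7 axis were looked at after LIN28B headed the list, so they were chosen after values were seen and carry no independent weight. LIN28B blocks let-7 maturation, HMGA2, TRIM71 and genes of the IGF2BP family are known let-7 targets, and MIRLET7BHG is the host transcript of let-7 microRNAs. HMGA2 measured 8.57 and 8.66 in SHI1 against 2.13 to 4.68 in the 6 arrays of the lines. TRIM71 measured 9.25 and 9.28 in SHI1 against 2.23 to 6.58, and IGF2BP1 7.02 and 7.33 against 2.34 to 4.83. IGF2BP3 measured 10.68 and 10.64 in SHI1 against 2.45 to 9.50, with MOLM13 the nearest line. MIRLET7BHG measured 5.21 and 5.26 in SHI1 against 6.40 to 7.51. IGF2BP2, of the same family as IGF2BP1 and IGF2BP3, went the other way, as given above. Outside the comparison these genes did not move as a block: IGF2BP1 was at 7.20 and HMGA2 at 9.97 in SKM1, which had IGF2BP3 at 2.36, while GDM1 had LIN28B at 11.08 and HMGA2 at 2.13. TRIM71 was above SHI1 in each further line, with means of 9.98 in GDM1, 9.57 in SKM1 and 10.04 in SKNO1, where LIN28B was at 2.13 in SKNO1. Mature microRNAs were not measured.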
